A study of Mus musculus with 8 samples.

Results

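The regions described here were open chromatin sites called in exactly ATAC2 and ATAC5, which are 2 of 7 ATAC-seq libraries of mouse bone marrow stromal cells. They were found by merging the peaks of all 7 lists wherever they shared at least 1 base. A merged region was kept when it held a peak of ATAC2 and a peak of ATAC5 and no peak of any other library. This gave 1727 regions of 50683 merged regions, or 3.41% of them, and 8.85% of the 19510 regions that were called in both libraries. The regions were chosen by the presence and absence of calls in these same lists, so their ranks and folds in ATAC2 and ATAC5 are given below as a description. A missing call in another library means that no peak passed the limits there, and not that the chromatin was closed.

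All libraries carried the same labels, namely wild type C57BL/6J mice, bone marrow, bone marrow derived stromal cells and an age of 6 weeks after birth. The study sorted marrow cells that carried Sca-1 and PDGFR-α and lacked the blood and endothelial markers CD45, Ter119 and CD31, divided them into 7 subpopulations by further surface markers, and asked how their open chromatin differed. The labels do not tie a title to a subpopulation, so the libraries are named by their titles, and the number of animals pooled for a library is not given in the sources used here. Each title had 1 library, and every library was compared by the authors with the same Input control. No value below therefore has a replicate, no difference between libraries can be tested against replicate error, and the 95% intervals cover counting error only.

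In ATAC-seq, the Tn5 transposase inserts sequencing adapters into DNA that is not shielded by nucleosomes, so that reads pile up at promoters and enhancers. Promoters of housekeeping genes are open in most cells, whereas distal enhancers, which lie in introns and between genes, are opened by the transcription factors of each cell type. AP-1, the dimers of Fos and Jun proteins, is a widespread opener of enhancers in stromal and fibroblastic cells, often together with TEAD factors, the DNA-binding partners of YAP and TAZ. RUNX factors act in bone and blood, CEBP factors in fat and myeloid cells, and GATA factors and PU.1 in blood cells. CTCF binds at the boundaries of chromatin loops.

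The sequences below are of the mm9 build, from the plus strand, 5′ to 3′. The first set holds the 6 best-ranked regions away from start sites, by the worse of their 2 ranks, and it is shown because these were the strongest distal calls of the set. Regions longer than 300 bases are shown by their central 300 bases. Capitals mark the TEAD consensus GGAATGT or its other strand, and no AP-1, RUNX, CEBP or CTCF match lies in these bases.
Distal region 13057 bases from the Fan1 start, chr7:71505282-71505581: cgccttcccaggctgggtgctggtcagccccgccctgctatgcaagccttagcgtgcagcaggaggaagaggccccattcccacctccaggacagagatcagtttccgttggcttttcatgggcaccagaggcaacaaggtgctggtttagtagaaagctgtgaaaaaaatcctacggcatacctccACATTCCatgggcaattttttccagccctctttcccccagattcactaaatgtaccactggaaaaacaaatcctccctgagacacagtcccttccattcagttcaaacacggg
Distal region 43076 bases from the Plce1 start, chr19:38555546-38555677: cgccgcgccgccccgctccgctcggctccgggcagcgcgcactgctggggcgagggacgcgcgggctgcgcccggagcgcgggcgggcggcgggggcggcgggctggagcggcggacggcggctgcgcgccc
Distal region 22797 bases from the Bpgm start, chr6:34403324-34403497: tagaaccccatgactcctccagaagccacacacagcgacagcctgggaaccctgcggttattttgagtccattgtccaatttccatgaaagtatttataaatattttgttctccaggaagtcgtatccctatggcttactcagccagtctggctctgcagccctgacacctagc
Distal region 31173 bases from the Kcna6 start, chr6:126721791-126721915: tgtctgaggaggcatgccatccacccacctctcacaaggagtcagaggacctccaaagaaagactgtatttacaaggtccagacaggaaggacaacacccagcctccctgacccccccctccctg
Distal region in a Zfp423 intron, chr8:90187051-90187350: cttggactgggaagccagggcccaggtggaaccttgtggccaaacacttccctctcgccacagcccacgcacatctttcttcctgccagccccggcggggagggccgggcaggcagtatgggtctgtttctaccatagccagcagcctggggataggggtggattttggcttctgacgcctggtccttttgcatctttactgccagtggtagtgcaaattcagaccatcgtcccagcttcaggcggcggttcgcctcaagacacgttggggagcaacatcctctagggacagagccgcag
Distal region 32277 bases from the Spata6 start, chr4:111360189-111360436: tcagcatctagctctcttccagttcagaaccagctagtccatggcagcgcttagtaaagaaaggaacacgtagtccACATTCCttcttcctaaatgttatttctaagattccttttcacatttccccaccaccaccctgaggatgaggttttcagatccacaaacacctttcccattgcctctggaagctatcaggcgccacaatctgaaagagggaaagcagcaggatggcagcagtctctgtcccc

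The second set shows 63 bases about an AP-1 consensus in regions near the genes that had the most of these regions and near genes of signalling pathways of the stroma, since AP-1 was the motif whose position was followed along the regions. Capitals mark TGACTCA or its other strand TGAGTCA.
Pdzrn3, chr6:101159776-101159838: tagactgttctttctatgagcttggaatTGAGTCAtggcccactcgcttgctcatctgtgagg
Plod2 intron, chr9:92491924-92491986: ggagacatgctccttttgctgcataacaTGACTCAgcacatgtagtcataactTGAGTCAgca
Phlda1, intergenic, chr10:111074324-111074386: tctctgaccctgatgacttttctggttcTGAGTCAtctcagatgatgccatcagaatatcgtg
Sash1 intron, chr10:8590295-8590357: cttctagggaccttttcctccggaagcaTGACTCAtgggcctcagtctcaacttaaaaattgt
Stard13 intron, chr5:151932427-151932489: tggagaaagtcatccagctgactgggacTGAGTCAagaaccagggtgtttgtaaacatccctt
Stard13 intron, chr5:151848850-151848912: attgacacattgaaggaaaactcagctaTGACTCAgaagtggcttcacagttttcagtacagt
Acvr1 intron, chr2:58382386-58382448: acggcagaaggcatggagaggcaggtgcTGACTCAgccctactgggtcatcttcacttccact
Lrp6 coding exon, chr6:134400926-134400988: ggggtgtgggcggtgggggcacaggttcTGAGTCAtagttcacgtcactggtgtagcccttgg
Notch2 intron, chr3:97847159-97847221: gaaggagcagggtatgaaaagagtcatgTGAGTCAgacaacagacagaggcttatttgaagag
Sfrp2, intergenic, chr3:83594126-83594188: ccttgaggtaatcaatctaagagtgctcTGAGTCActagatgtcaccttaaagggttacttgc
Tgfb2 intron, chr1:188500173-188500235: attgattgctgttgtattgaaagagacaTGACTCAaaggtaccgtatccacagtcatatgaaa
Wnt11, in a Uvrag intron, chr7:106061537-106061599: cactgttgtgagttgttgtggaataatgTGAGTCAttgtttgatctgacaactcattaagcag

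The peak lists held 15188 to 32280 peaks per library, with 32280 in ATAC2 and 31479 in ATAC5, and the total reads per library are not given in the sources used here. Reads in the regions called in all 7 libraries ranged from 2561419 to 5812837, with 3491538 in ATAC2 and 5700480 in ATAC5. Peaks within 1000 bases of any annotated start of a gene were checked for markers of the cells. Of 20 genes of stromal progenitors and the niche, 8 had a start peak in ATAC2 and 13 in ATAC5, including Pdgfra in both. Of 18 haematopoietic transcription factors, 9 had one in ATAC2 and 14 in ATAC5, and of 20 endothelial genes 2 and 6 did. Over all 22238 protein-coding genes, 50.3% had a start peak in ATAC2 and 52.9% in ATAC5. The counts over the 7 libraries ran from 5 to 13 for the stromal list, from 5 to 14 for the haematopoietic list and from 0 to 6 for the endothelial list. Ptprc (CD45) and Pecam1 (CD31), the markers the sort removed, had a start peak in ATAC5 and not in ATAC2. Ptprc also had one in ATAC1, ATAC3 and ATAC7, whereas Pecam1 had one in no other library. Ly6a (Sca-1) had none in any library. The part of other cell types in the results below was not tested.

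Among the 21 pairs of libraries, ATAC2 and ATAC5 had the second largest number of regions called in that pair alone. The exact pair ATAC2 and ATAC6 had 2235 regions, ATAC2 and ATAC5 had 1727, ATAC5 and ATAC6 had 1152, and ATAC1 and ATAC5 had 854. The lowest count was 32, for ATAC6 and ATAC7. The 3 pairs among ATAC2, ATAC5 and ATAC6 were thus the 3 highest, and these were also the 3 longest lists. With each list limited to its 15188 best-ranked peaks, 286 regions were called in exactly ATAC2 and ATAC5, and the pair stood in place 4. When ATAC6 was not considered, 4992 regions met the rule.

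**Figure D1:**
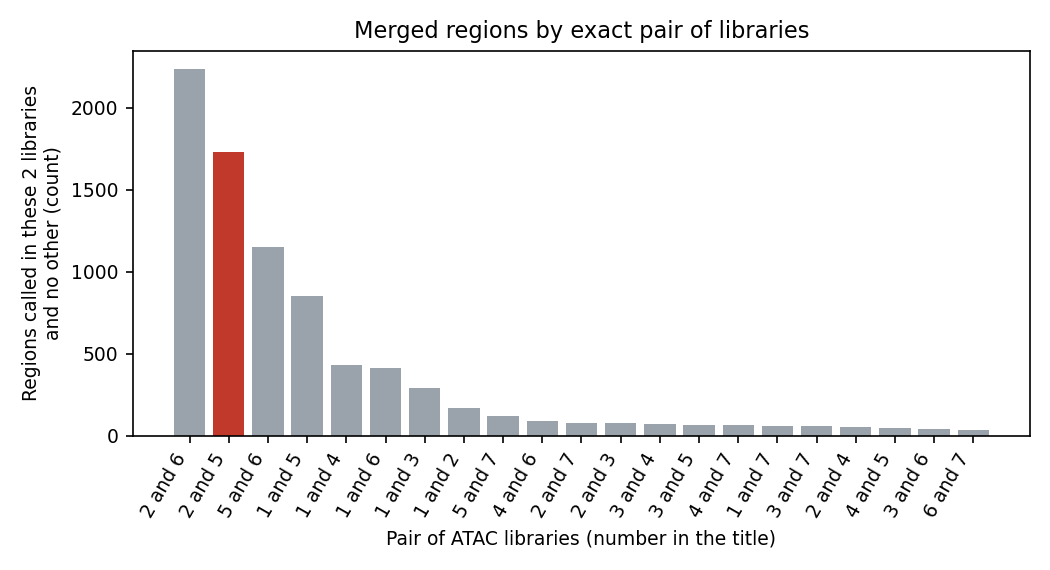
Bars give the number of merged regions called in exactly the named pair of libraries and in no other, for each of the 21 pairs. The red bar, ATAC2 and ATAC5 with 1727 regions, stands between ATAC2 and ATAC6 with 2235 and ATAC5 and ATAC6 with 1152.

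The regions came from the weaker part of both lists. The median rank, as a percentile of the list counted from the best peak, was 73.5 in ATAC2 and 73.9 in ATAC5, and 272 regions (15.7%) lay in the better-ranked part of the ATAC2 list that holds 50% of its peaks, against 192 (11.1%) in ATAC5. The median fold over Input was 9.04 in ATAC2, where all peaks of the library had 9.27, and 9.80 in ATAC5, where all peaks had 10.9. Read counts were lower than in the lists as a whole, with medians of 69 against 111 reads in ATAC2 and 72 against 124 reads in ATAC5. The Input reads were lower as well, with medians of 12 and 13 in the regions against 21 and 23 in all peaks. Regions called in ATAC2 alone had a median rank percentile of 79.7 and those called in ATAC5 alone one of 80.0, while regions called in exactly ATAC2, ATAC5 and ATAC6 stood at 54.4 and 62.9. A fold carries no information where Input had 0 reads, as it had in 12 regions in ATAC2 and 8 in ATAC5.

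The folds over Input in ATAC2 and ATAC5 were less than 2 times apart in most of the regions. The median ratio of the ATAC5 fold to the ATAC2 fold was 1.11, or 0.15 on the log2 scale with quartiles of -0.17 and 0.43, and the ATAC5 fold was the higher one in 1087 regions (62.9%). This direction held only on the scale of the deposited folds and turned under both other scales given below. The same median was 1.34 over every region called in both libraries, 1.53 over regions called in all 7 and 1.00 over those called in exactly ATAC2, ATAC5 and ATAC6. The ATAC5 fold exceeded the ATAC2 fold by more than 2 times in 77 regions (4.46%, beside 7.94% of all regions called in both), and the ATAC2 fold exceeded the ATAC5 fold by as much in 43 (2.49%, beside 1.16%). Of the 1713 regions with Input reads in both libraries, these were 74 and 37. When the ratio was divided by its median over the regions called in all 7 libraries, a log2 shift of 0.62, the median log2 ratio was -0.47 and ATAC5 was the higher one in 260 regions (15.1%), with 9 regions more than 2 times higher in ATAC5 and 246 in ATAC2. With reads per kb alone, scaled to the reads in regions called in all 7 libraries and without Input, the median was -0.70 and ATAC5 was the higher one in 80 regions (4.63%), with 2 and 385 past 2 times. Pearson's r of the log2 folds across the 1727 regions was 0.82, and it includes the regions with 0 Input reads, whose folds carry no information. It is a correlation across regions, which are not replicates, and both folds share the same Input.

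The region with the highest ratio among those with at least 10 Input reads on both sides lay in an intron of Apbb2, which encodes a binding partner of the amyloid precursor protein. ATAC2 had 42 reads over 13 Input reads there and ATAC5 had 109 over 13, so the fold was 5.10 in ATAC2 and 14.4 in ATAC5, a ratio of 2.81.

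**Figure D2:**
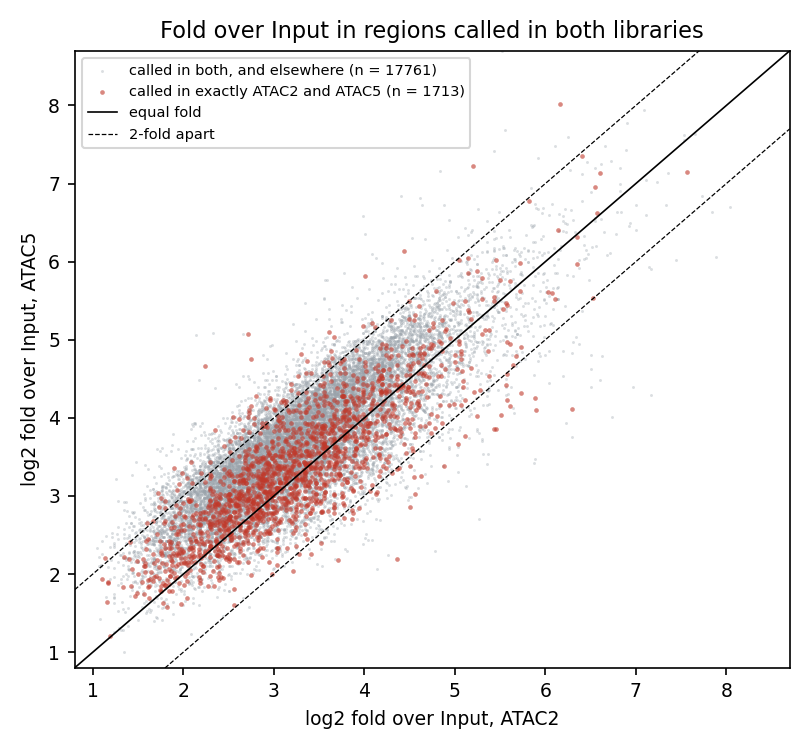
Points are regions called in both ATAC2 and ATAC5 with Input reads in both, by the log2 fold over Input in each library, red for the 1713 called in exactly these libraries and grey for those also called elsewhere. The red points lie about the line of equal fold (median log2 ratio 0.15 on the scale of the deposited folds, -0.47 when divided by the median of the regions called in all 7 libraries), the grey cloud is shifted towards ATAC5, and the dashed lines mark a 2-fold difference.

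The peaks of both libraries usually sat on the same bases. Over all 1727 regions they shared a median of 87 bases, and 1631 regions held 1 peak of each library. In these 1631, the shared bases were a median of 98.1% of the shorter peak. The centres of the peaks lay a median of 38.5 bases apart there, and 1436 (88.0%) shared at least 50% of the shorter peak. At the limit of the rule, 116 regions shared 10 bases or fewer and 9 shared a single base. One just inside lay near Rdh10, a retinol dehydrogenase, with 90 reads over 20 Input reads in ATAC2 and 171 over 27 in ATAC5. One just outside, near St18, had an ATAC2 peak and an ATAC5 peak that were adjacent without a shared base, with 34 reads over 9 and 38 over 5, and 67 pairs of a region of ATAC2 alone and one of ATAC5 alone lay within 10 bases of each other.

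A peak of another library was often close by. Of the 1727 regions, 331 (19.2%, 17.4 to 21.1) had one within 500 bases, and 65 had one within 10 bases. ATAC6 gave the nearest neighbours, with a peak within 500 bases of 283 regions, against 122 for ATAC1, 90 for ATAC7, 76 for ATAC3 and 71 for ATAC4. The median distance to a peak of another library was 8005 bases. The peak caller also gives a wider outer region from which each peak was cut. Such an outer region of another library overlapped 238 regions (13.8%) by at least 1 base, and one of ATAC6 did so in 214. In these, the peak of the other library itself shared no base with the region. Near start sites 121 of 337 regions (35.9%) had a peak of another library within 500 bases, against 210 of 1390 (15.1%) away from them.

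The regions lay mostly away from promoters. A start site of any annotated gene was within 1000 bases of the centre in 337 regions, or 19.5% (17.7 to 21.4), compared with 40.7% of all other merged regions, a difference of -21.2 percentage points (-23.1 to -19.2). The centre was in an intron in 807 regions (46.7%, 44.4 to 49.1), beside 41.7% of all other regions, and between genes in 743 (43.0%, beside 40.1%). It was in an untranslated region in 93 (5.39%, beside 11.3%), in a coding exon in 54 (3.13%, beside 4.72%) and in a noncoding exon in 30 (1.74%, beside 2.26%). The intron share was higher in ATAC2 alone (49.4%), exactly ATAC2 and ATAC6 (50.1%), ATAC1 alone (50.6%) and ATAC6 alone (51.4%), by intervals that exclude 0. Those intervals included 0 for ATAC5 alone (48.6%), exactly ATAC5 and ATAC6 (43.6%) and exactly ATAC2, ATAC5 and ATAC6 (48.8%). It was 19.0% in regions called in all 7 libraries. The start-site distance was 10 to 100 kb in 765 regions (44.3%, beside 31.2%) and over 100 kb in 111 (6.43%, beside 4.11%). The 1390 regions over 1000 bases from a start site, called distal here, were a median of 22.8 kb from the nearest protein-coding start, beside 18.8 kb in all other distal regions, and had a median GC content of 49.5%, beside 50%.

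The promoter share was close to those of ATAC2 alone and of the triple set with ATAC6, and below that of ATAC5 alone. It was 17.5% in regions called in ATAC2 alone, a difference of 1.96 points with an interval of -0.07 to 4.11 that includes 0. It was 26.5% in regions called in ATAC5 alone, a difference of -6.98 points (-9.12 to -4.73). The exact pair ATAC2 and ATAC6 had 13.5% and the exact pair ATAC5 and ATAC6 had 32.1%, and both differences from 19.5% had intervals that exclude 0. Regions called in exactly ATAC2, ATAC5 and ATAC6 had 19.5%, a difference of -0.02 points (-2.28 to 2.32). The share was 27.6% at an equal number of peaks per list and 15.5% without the 331 regions that had another peak within 500 bases.

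AP-1 was found in 302 of the 1390 distal regions, counting either strand within the central 200 bases, which is 21.7% (19.6 to 24.0). The share was 18.5% in all other distal regions, a difference of 3.21 points (1.08 to 5.50). It was 22.3% in distal regions called in ATAC2 alone, which differed by an interval that includes 0 (-2.94 to 1.95), and 17.9% in those of ATAC5 alone, which was lower by 1.39 to 6.31 points. The triple set with ATAC6 had 26.3% and the exact pair ATAC2 and ATAC6 had 25.5%, both above the regions of ATAC2 and ATAC5. Distal regions called in ATAC1 alone had 8.87%, a difference of 12.9 points (10.5 to 15.3). One AP-1 motif was found in 280 of the distal regions and 2 motifs in 22.

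The AP-1 motifs were concentrated at the centre of the regions. Within 100 bases of the centre there were 6.08 motifs per 100 distal regions in 50 bases, against 0.94 at 300 to 500 bases, a ratio of 6.44. The ratio was 8.24 in the triple set, 5.34 in all other regions and 2.47 in ATAC1 alone, while the flanks of the 4 groups were alike at 0.91 to 0.99. The median read counts of the 302 regions with AP-1 were 64 in ATAC2 and 66 in ATAC5, and those of the 1088 without it were 68 and 69. The AP-1 share was 20.6% (17.7 to 23.7) in the 695 better-ranked distal regions and 22.9% (19.9 to 26.1) in the 695 others, so AP-1 was not limited to the strong calls.

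**Figure D3:**
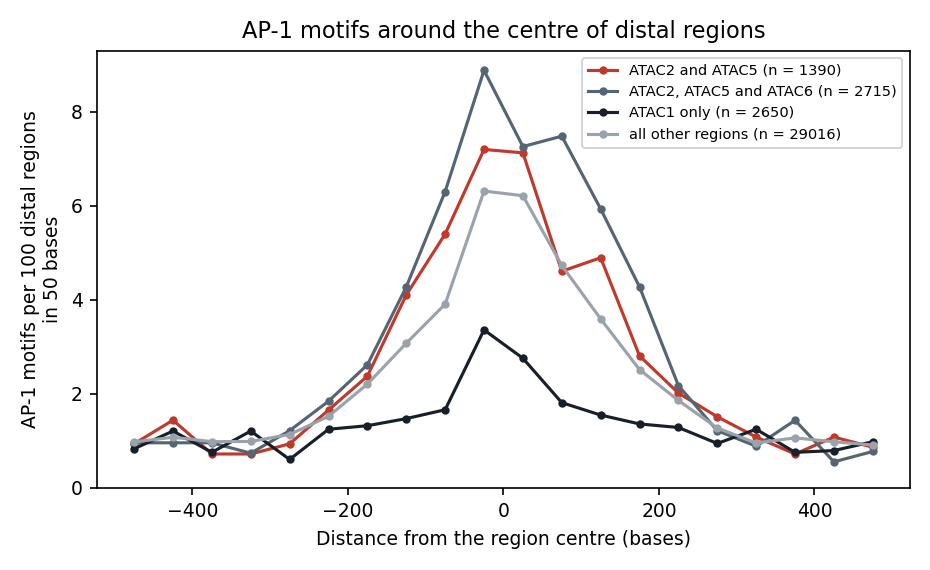
Lines give the number of AP-1 consensus motifs per 100 distal regions in bins of 50 bases, by distance from the region centre in bases, for the regions called in exactly ATAC2 and ATAC5 and for 3 other groups. The red line peaks at 7.19 next to the centre and falls to the level of the flanks beyond 300 bases, and the line of ATAC1 alone peaks lowest.

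The GATA and PU.1-like motifs were less common in the distal regions than in those of ATAC1 alone. The GATA consensus AGATAA was in 68 distal regions (4.89%, 3.88 to 6.16), against 14.9% in ATAC1 alone, 10.6% in ATAC6 alone and 7.49% in all other distal regions. The last difference was -2.59 points (-3.65 to -1.30). The share was 3.73% in ATAC2 alone (a difference of 1.16 points, 0.01 to 2.51), 6.22% in ATAC5 alone (-2.60 to 0.12), 3.78% in the exact pair ATAC2 and ATAC6, 4.09% in the exact pair ATAC5 and ATAC6 and 4.16% in the triple set, and all of these intervals but that of ATAC2 alone included 0. The PU.1-like GAGGAAGT was in 24 (1.73%), against 7.85% in ATAC1 alone and 3.08% in all other distal regions. It ranged from 1.19% to 2.52% in ATAC2 alone, ATAC5 alone, ATAC6 alone, both exact pairs with ATAC6 and the triple set, and all 6 of these differences had intervals that include 0. The TEAD consensus was in 68 (4.89%), against 1.70% in ATAC1 alone and 3.58% in all other distal regions, a difference of 1.31 points (0.28 to 2.60). It ranged from 3.94% to 4.50% in ATAC2 alone, ATAC5 alone, both exact pairs with ATAC6 and the triple set, and all 5 of these differences had intervals that include 0. Against ATAC6 alone, where TEAD was at 3.35%, the interval excluded 0 (0.25 to 2.96). The RUNX consensus TGTGGTT was in 116 (8.35%), against 12.2% in the exact pair ATAC2 and ATAC6, 9.17% in ATAC1 alone (-2.60 to 1.06) and 8.67% in all other regions, of which only the first differed by an interval that excludes 0. The CEBP consensus TTGCNNAA was in 121 (8.71%), against 9.84% in all other distal regions, where the interval included 0 (-2.55 to 0.50). It was at 11.7% in ATAC5 alone, 12.2% in ATAC1 alone (-5.33 to -1.45) and 6.95% in ATAC6 alone (0.01 to 3.61), and these 3 intervals exclude 0. The CEBP intervals included 0 for ATAC2 alone (7.69%), both exact pairs with ATAC6 and the triple set.

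The CTCF motif set the regions apart from their neighbours in both directions. It was in 63 distal regions (4.53%, 3.56 to 5.76). This was above the 2.95% in ATAC2 alone by 0.50 to 2.88 points and above the 2.73% in the triple set by 0.62 to 3.15 points. It was below the 6.10% in ATAC5 alone, with a difference of -1.57 points (-2.81 to -0.16), and below the 9.46% in the exact pair ATAC5 and ATAC6, with a difference of -4.93 points (-7.39 to -2.71). Against all other distal regions, at 3.75%, the interval of the difference included 0 (-0.22 to 2.03). In all, 184 differences of a share were computed over 23 shares and 8 other sets, and the intervals are not adjusted for their number.

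Homeobox, E-box and GC-rich motifs differed from some sets. The homeobox TAATTA was in 51 distal regions (3.67%), against 7.09% in the exact pair ATAC2 and ATAC6, a difference of -3.42 points (-4.92 to -1.87), and against 5.11% in ATAC2 alone (-2.51 to -0.18). It was at 4.12% in all other distal regions, where the interval included 0, as it did for the SOX consensus, ACAAAGG or ACAATGG, in 66 regions (4.75%, against 5.60%). The E-box CAGCTG was in 190 (13.7%), against 16.3% of all other regions, a difference of -2.60 points (-4.36 to -0.65), and the E-box CATCTG was in 241 (17.3%, against 17.5%). The GC-rich GGGCGG of SP and KLF factors was in 96 (6.91%), against 9.73% of all other regions, a difference of -2.82 points (-4.09 to -1.33). The share was 11.8% in the exact pair ATAC5 and ATAC6 (-7.59 to -2.33) and 9.20% in ATAC6 alone (-4.01 to -0.48). The intervals included 0 for ATAC1 alone, ATAC2 alone, ATAC5 alone, the exact pair ATAC2 and ATAC6 and the triple set. The MEF2 motif was in 26 (1.87%), against 2.55% of all other distal regions, where the interval included 0 (-1.30 to 0.20). It was at 3.41% in the exact pair ATAC2 and ATAC6 (-2.63 to -0.42), 3.56% in ATAC6 alone (-2.69 to -0.60) and 2.86% in ATAC5 alone (-1.79 to -0.01). For ATAC1 alone, ATAC2 alone, the exact pair ATAC5 and ATAC6 and the triple set, the MEF2 intervals included 0. NF-kB was found in 44 (3.17%, against 3.35% of all other distal regions), EBF in 31 (2.23%, against 2.32%), STAT (TTCCNGGAA) in 17 (1.22%, against 0.92%), the CRE TGACGTCA in 10 (0.72%, against 0.55%) and ETS (CCGGAAGT) in 4 (0.29%, against 0.53%), and all 5 of these intervals of the difference included 0. Against single sets, the interval excluded 0 for STAT in the exact pair ATAC5 and ATAC6 (0.26%, 0.15 to 1.72) and in ATAC6 alone (0.57%, 0.05 to 1.41). NFI and the glucocorticoid receptor motif were found in 1 region each, against 44 and 69 of the 29016 others, and both intervals of the difference included 0. Against ATAC5 alone, where the glucocorticoid receptor motif was at 0.60%, the difference was -0.53 points (-0.82 to -0.14). NRF1 was found in 7 of the 29016 others and in none of the 1390, which allows a share of up to 0.28% by the Wilson interval. A motif match describes the letters in the window and not binding.

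**Figure D4:**
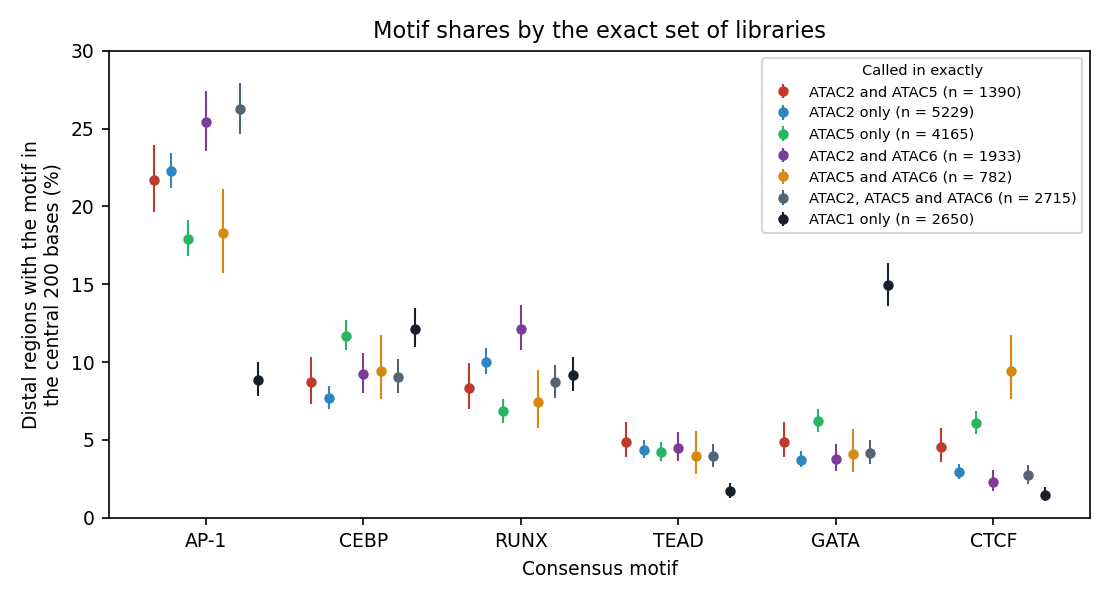
Points give the share of distal regions with the motif in the central 200 bases, in %, with 95% Wilson intervals, for 6 motifs and 7 exact sets of libraries. For AP-1 the red point of ATAC2 and ATAC5 (21.7%) lies between ATAC5 alone (17.9%) and the triple set (26.3%), and for GATA it lies far below ATAC1 alone (14.9%).

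The best-ranked distal region lay in an intron of Fan1, a nuclease of DNA crosslink repair, at chr7:71505219-71505643. ATAC2 had 481 reads over 30 Input reads and ATAC5 had 126 over 9, so the folds were 25.3 and 24.0. Its sequence, shown above, holds a TEAD consensus, and an ATAC6 peak lay 2 bases away. Regions near Plce1, a phospholipase C, and Bpgm, the red cell enzyme bisphosphoglycerate mutase, followed. Near Plce1 the counts were 159 over 53 and 233 over 83, with an ATAC6 peak 19 bases away, and near Bpgm they were 183 over 11 and 191 over 11, with an ATAC6 peak 7 bases away. The region near Kcna6, a voltage-gated potassium channel, had 300 reads over 15 and 182 over 7. An ATAC6 peak lay 42 bases away, and only 3 bases of the region were shared by the peaks of ATAC2 and ATAC5. Its AP-1 motif lay inside the 200-base window but outside the 125 bases of the region shown above.

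Of the 6 distal regions shown, those in Zfp423 and near Spata6 lay 6388 bases or more from any peak of another library. The former, in an intron of Zfp423, a transcription factor of preadipocyte commitment, was nearest to the start of 4933402J07Rik and had 186 reads over 75 Input reads in ATAC2 and 137 over 47 in ATAC5. The nearest other peak was 6388 bases away. The latter, 32277 bases from Spata6, a gene of sperm formation, had 101 over 9 and 71 over 5, with folds of 17.7 and 24.3, and the nearest other peak was 32105 bases away. It held a TEAD consensus. The next distal regions were in an intron of Pknox2, nearest to Fez1 (70 reads over 5 and 88 over 8), and nearest to Cwc22 (188 over 24 and 102 over 6), Mctp2 (155 over 5 and 157 over 5) and Ccdc54 (180 over 24 and 208 over 24). The nearest peak of another library was 1 base from the Mctp2 region (ATAC6) and 1 base from the Ccdc54 region (ATAC7). It was 450 bases away near Cwc22 (ATAC3) and 2279 bases away near Fez1 (ATAC6). Near Cwc22 the fold was higher in ATAC5 (29.1 against 12.4), over 6 Input reads, while the read count was higher in ATAC2.

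The best-ranked promoter region was at Grlf1, with 943 reads over 110 Input reads in ATAC2 and 1740 over 153 in ATAC5. These were the highest read counts of all the regions. It lay 355 bases from the start, and an ATAC7 peak was 11 bases away. The start of Psmd1, a proteasome subunit, had 253 over 61 and 403 over 66, and that of Suclg1, a subunit of succinate-CoA ligase, had 189 over 30 and 280 over 36. The region near Arrdc3, an arrestin family member, had 159 over 10 and 159 over 9, and that near Stxbp6, a syntaxin-binding protein, had 111 over 11 and 139 over 11. All 5 lay within 34 bases of a peak of another library, so another library had a call at each of these promoters too.

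The regions were spread over many genes, with few of them collecting several. By the nearest protein-coding start, 1454 genes had at least 1 region, which is 6.54% of the 22238 protein-coding genes. Of these genes, 1230 had a single region, 188 had 2, 27 had 3, 5 had 4 and 4 had 5. The 4 genes with 5 regions were Ets1, an ETS transcription factor, Pdzrn3, a ubiquitin ligase, Plod2, the lysyl hydroxylase of collagen telopeptides, and 2010111I01Rik. Those with 4 were Phlda1, Rgma, a BMP co-receptor and guidance cue, Sash1, a scaffold protein, Stard13 and Trib2, a pseudokinase. Genes differ in how many regions of any set lie nearest to them. These numbered 49 for Ets1, 40 for 2010111I01Rik, 18 for Pdzrn3 and 11 for Rgma, so that the regions of ATAC2 and ATAC5 were 5 of 49 at Ets1 and 4 of 11 at Rgma.

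The reads of the 5 regions of Ets1 ran from 36 to 56 in ATAC2 and from 42 to 118 in ATAC5, and none held AP-1. The region at chr9:32474924-32475338 had 56 reads over 3 Input reads in ATAC2 and 85 over 14 in ATAC5, so that its fold was higher in ATAC2 (29.4 against 10.4) and its read count in ATAC5. At Plod2, the intronic region with 2 AP-1 motifs shown above had 72 reads over 9 Input reads in ATAC2 and 78 over 9 in ATAC5. A second intronic region less than 1 kb away, at chr9:92492662-92492950, had 59 over 17 and 153 over 21, a ratio of 2.28 in favour of ATAC5. At Stard13, all 4 regions were intronic and 2 held AP-1, with 47 reads over 5 and 64 over 6 in the one and 97 over 11 and 95 over 10 in the other. At Sash1, the 4 regions were intronic, and 2 of them had ratios of 2.14 and 2.25 in favour of ATAC5 on the uncentred scale of the deposited folds. The first had 67 reads over 23 in ATAC2 and 161 over 28 in ATAC5. The second had 75 over 13 and 84 over 7, so its ratio rests on few Input reads. At Rgma, the region at chr7:80557019-80557099 went the other way, with 173 reads over 20 in ATAC2 and 73 over 19 in ATAC5, a ratio of 0.48.

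**Figure D5:**
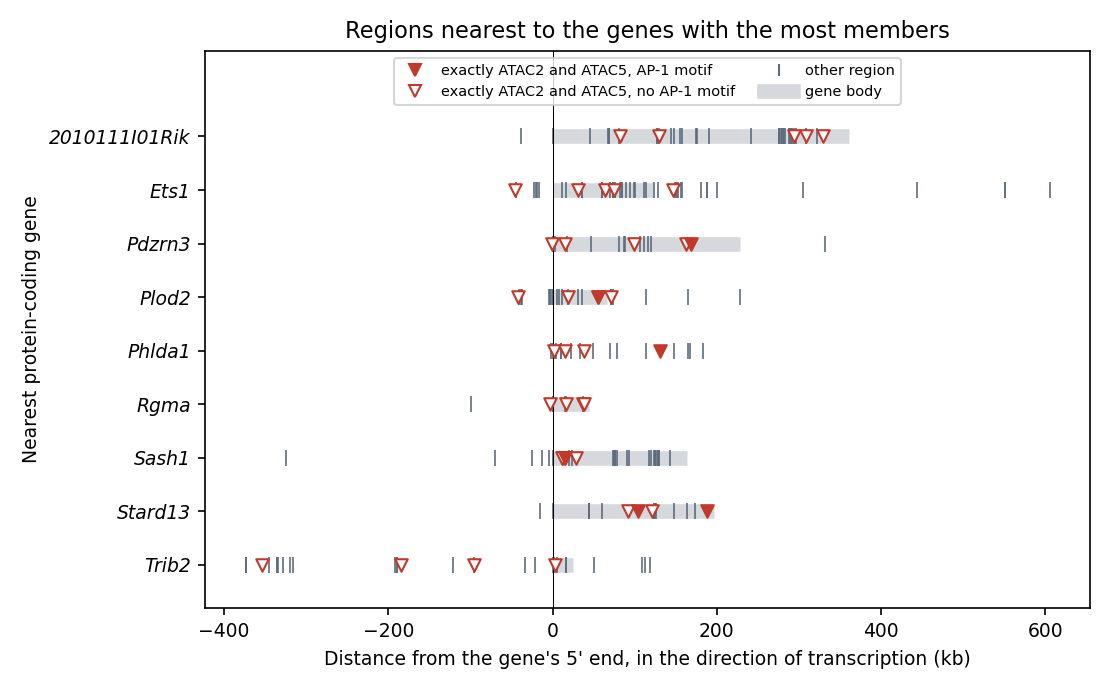
Each row is 1 of the 9 genes with the most regions, with distance from the gene's 5′ end in kb along the direction of transcription, the gene body as a grey bar, other regions as ticks and the regions of ATAC2 and ATAC5 as triangles, filled where AP-1 was found. The 4 regions of Stard13 lie within the gene and 2 are filled, and the regions of Trib2 reach beyond 350 kb upstream.

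Of the 1390 distal regions, the start of the nearest gene had a peak in all 7 libraries for 679 (48.8%) and in none for 313 (22.5%), against 51.5% and 20.8% of all other distal regions. It was called in exactly ATAC2 and ATAC5 for 16 of 1390, beside 253 of 29016 other distal regions and 38 of 2715 in the triple set.

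Of 20 genes of stromal progenitors and the haematopoietic niche, 4 were nearest to at least 1 region (20%, beside 6.54% of all genes). Genes with many regions of any kind have more chances, so the share of regions is given as well. Of the 72 regions of any set nearest to these genes, 6 (8.33%) were called in exactly ATAC2 and ATAC5, against 3.41% of all. They lay near Pdgfra, the receptor used in the sort, Cxcl12, the chemokine that keeps blood stem cells in the marrow, Foxc1, a transcription factor of niche cells, and Prrx1, a mesenchymal transcription factor. The region at the Cxcl12 start, 58 bases from it, had 87 reads over 38 Input reads in ATAC2 and 90 over 39 in ATAC5, with folds of 3.62 and 3.95. No region called in another library had its centre within 1000 bases of that start, and the nearest other peak was 1500 bases from the region. The Pdgfra regions had 77 over 22 and 86 over 25 upstream, 9033 bases from the start, and 67 over 10 and 88 over 22 in the gene. These read counts lay within the quartiles of all the regions, 52 to 91 in ATAC2 and 56 to 99 in ATAC5.

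Signalling genes were also among the nearest genes. For the Wnt pathway, in which secreted ligands act through Fzd receptors and Lrp co-receptors on β-catenin, 9 of 37 genes had 12 of the 156 regions nearest to them (7.69%, beside 3.41% of all regions). Among the ligands, Wnt7b had a region 31859 bases from its start with 108 reads over 16 and 80 over 18, and an ATAC6 peak lay 475 bases away. The 2 regions nearest to Wnt11 lay in Uvrag introns, 74230 and 123548 bases from the Wnt11 start. The receptor Fzd7 had a region at its start with 50 reads over 36 Input reads in ATAC2 and 150 over 56 in ATAC5, a ratio of 2.09. An ATAC6 peak lay 395 bases from that region. The co-receptor Lrp6 had an AP-1 motif in a region over a coding exon, with 77 over 20 and 85 over 28. The secreted antagonist Sfrp2 had 95 over 23 and 113 over 23 in a region with AP-1, and the nearest other peak was 37980 bases away. The others were Lrp5, Lgr4, the receptor of R-spondins, Rspo2 and Lef1, the transcription factor at the end of the pathway. The Rspo2 region was 207908 bases from the start and had 0 Input reads in ATAC5, so the assignment by distance says little there.

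For TGF-β and BMP signalling, 9 of 36 genes had 16 of 286 regions (5.59%, beside 3.41% of all regions). The ligand Tgfb2 had 3 regions, one of which, in an intron, held AP-1 and had 86 reads over 9 in ATAC2 and 132 over 13 in ATAC5. The ligand Bmp2 had 51 over 6 and 68 over 6 at 1727 bases from its start. Tgfbr3, the co-receptor betaglycan, had 3 intronic regions, and the receptor Acvr1 had 2, of which the one with AP-1 had 49 over 7 and 79 over 15. The inhibitors Nog and Smad7 and the target genes Id1 and Id2 were also nearest genes. For Hedgehog it was 3 of 14 genes (4 of 90 regions, 4.44%), and for Notch 4 of 15 genes (5 of 106 regions, 4.72%), again beside 3.41% of all regions and 6.54% of all genes. The Cdon region, at a Hedgehog co-receptor, had 81 reads over 21 and 46 over 5, so that its fold was higher in ATAC5 (ratio 2.58) and its read count in ATAC2. The Notch2 region with AP-1 had 97 over 17 and 126 over 18, and an ATAC6 peak lay 93 bases away.

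Genes of the chondrocyte, osteoblast and adipocyte lineages were also among the nearest genes. The chondrocyte list had 5 of 20 genes and 6 of 136 regions (4.41%, beside 3.41% of all regions), among them Sox5, a cartilage transcription factor, and the cartilage collagens Col9a2 and Col11a1. At Col11a1 the counts were 70 over 8 and 65 over 6. The osteoblast list had 3 of 20 genes, namely Spp1, Col1a1 and Col1a2, and 5 of 94 regions (5.32%), and none of these lay in the gene or within 5000 bases upstream of it. The adipocyte list had Ebf1 and Ebf2, with 3 of 56 regions (5.36%). At Ebf1, which is also in the haematopoietic list, they were 70 over 26 and 100 over 34.

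Haematopoietic transcription factors had 3 of 18 genes, Runx1, Fli1 and Ebf1, and 3 of 124 regions (2.42%, beside 3.41% of all regions). The endothelial list had Cdh5, Esam and Egfl7, with 3 of 55 regions (5.45%). The region at the start of Esam, an endothelial adhesion molecule, had 186 reads over 38 in ATAC2 and 128 over 21 in ATAC5, and its start was called in no other library. The Cdh5 region was 564511 bases from the gene, so that the assignment by distance says little there. The axon guidance list had 8 of 24 genes and 9 of 180 regions (5%), among them Ncam1, a neural cell adhesion molecule, with 74 over 15 and 101 over 15. Each list rests on 3 to 16 regions, a gene's nearest region need not act on it, and no list was tested.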

How the data were processed

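The study sequenced 7 ATAC-seq libraries and an Input control. Per the paper's methods and the submitters' processing notes, reads were aligned to mm9 with Bowtie, and the authors called peaks in each library separately, without pooling, with CisGenome's two-sample mode against Input (p-value limit 1e-05, FDR under 0.01). DiffBind and bedtools are also named in those notes. Shifting of reads and removal of duplicates are not given in the sources used here, so edges of peaks may be off by several bases. The extraction text of the labels describes RNA, although these libraries are genomic DNA.

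The deposited tables have no header, and columns were read from their values. The deposited read counts are those of the library and Input in the outer region of a peak. The authors' fold is a ratio of scaled library reads to Input reads plus 0.01. The ranking statistic is a signal of the authors' peak caller, used as ranks only. A deposited position-like score column was not used. The tables hold no FDR per peak. Coordinates are printed as deposited and may be 1 base off at the start if counted from 0.

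Peaks were merged at 1 shared base. Distances and classes came from GENCODE vM1 on NCBIM37, which is mm9. Motifs were 21 consensus strings searched on both strands in the central 200 bases. Shares have Wilson intervals and differences Newcombe intervals, at 95%. Where a region had several peaks of a library, its best-ranked peak gave the values. The merging and motif steps were tested on simulated data. Regions named in the text were the 10 best-ranked distal and 5 best-ranked promoter regions by the worse rank percentile, the best-ranked of each gene list, those of the 5 genes with most regions (9 with ties), and the highest and lowest ratio at 10 or more Input reads, of which the lowest is not reported here. Other listed genes, and the regions at the limit of the rule, were named after their values were seen. The regions, gene lists and motifs were chosen with earlier results of these data known, so no count over them is independent support. Symbols missing from the annotation were Cebpd, Spi1 and Gfi1. Tools were scipy 1.17.1, matplotlib 3.10.9, pandas 2.3.3, numpy 2.4.6 and Python 3.11.15. Alternatives covered the peaks merged, the libraries that exclude a region, distances, motif windows and the scale of the ratio.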

Additional observations from a re-analysis of the deposited data

How the results depend on the processing

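Of 67 alternative values of the main results, 45 stayed within counting error or 1.5 times the main count and 22 moved. Keeping the 15188 best-ranked peaks of each list gave 286 regions, a promoter share of 27.6%, an intron share of 43.4%, median folds of 11.7 in ATAC2 and 12.96 in ATAC5, 3 regions more than 2 times higher in ATAC5 and 1 in ATAC2, and place 4 among the pairs. The promoter share was 15.6% with outer regions, 15.0% with peaks within 500 bases merged, and 14.5% and 28.5% with limits of 500 and 2500 bases. Leaving out regions within 500 bases of another library's peak, an alternative chosen after seeing the data, gave 15.5%. Without considering ATAC6, 4992 regions met the rule. Centring the ratio gave 9 and 246 regions past 2-fold in ATAC5 and ATAC2, and reads without Input gave 2 and 385, and the median log2 ratio turned from 0.15 to -0.47 and -0.70. Another library's peak lay within 200 bases of 13.1% and within 2000 bases of 31.7%. The AP-1 share was 28.1% over whole regions and 34.2% in the central 400 bases, since longer windows hold more letters. Of 52 other values, 26 moved, mostly motif shares in the longer windows. With a region required in the gene or 5000 bases upstream, the genes with a region fell from 4 to 2 for Notch, from 3 to 1 for the endothelial list and from 3 to 0 for the osteoblast list. Leaving out a replicate was not possible with 1 library per title. No paired analysis was possible because there was 1 library per title and no test was made. Read counts of about 70 per region limit the precision of each fold.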

Other observations

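The 337 regions within 1000 bases of a start site had more AP-1 and fewer GC-rich motifs than all other promoter regions. AP-1 was in 32 of them (9.50%, 6.81 to 13.1), against 3.97% of all other promoter regions, 3.53% of those called in ATAC1 alone, 89 of 1113 in ATAC2 alone, 4.73% in ATAC5 alone, 4.78% in ATAC6 alone, 11.9% in exactly ATAC2 and ATAC6, 6.76% in exactly ATAC5 and ATAC6 and 10.5% of those called in exactly ATAC2, ATAC5 and ATAC6. The TEAD consensus was in 14 (4.15%, 2.49 to 6.85), against 1.62% of all other promoter regions, 2.25% in ATAC2 alone, 2.53% in ATAC5 alone, 1.99% in exactly ATAC2 and ATAC6, 1.08% in exactly ATAC5 and ATAC6 and 2.28% in the triple set, and the value of ATAC5 alone lay within the interval. The GC-rich GGGCGG was in 98 (29.1%, 24.5 to 34.1), against 46.8% of all other promoter regions, 63.2% of those called in all 7 libraries, 22.1% in ATAC1 alone, 26.3% in ATAC2 alone, 32.2% in ATAC5 alone, 301 of 1004 in ATAC6 alone, 20.5% in exactly ATAC2 and ATAC6, 44.6% in exactly ATAC5 and ATAC6 and 36.7% in the triple set. The ETS consensus was in 5 (1.48%, 0.64 to 3.43), an interval that includes the 3.25% of all others.

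The regions were spread over the chromosomes, and their share departed most from that of all merged regions on chromosome 11. It held 57 regions, 3.30% of them, where it held 6.04% of all merged regions. Chromosome 7 held 97 (5.62%, beside 6.95%) and chromosome 3 held 119 (6.89%, beside 5.73%). Chromosome X held 42 (2.43%, beside 1.99%) and chromosome Y none, of 49 merged regions there. A region lay a median of 252 kb from the next one of the set, 109 lay within 10 kb of another, and 366 (21.2%) within 50 kb.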
